A study of Mus musculus with 1479 samples.

Results

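Tenascins and thrombospondins are large secreted glycoproteins of the extracellular matrix. The rows of 8 genes, 3 tenascins (Tnc, Tnxb, Tnn) and 5 thrombospondins (Thbs1, Thbs2, Thbs3, Thbs4 and Comp, the cartilage oligomeric matrix protein), were taken by gene symbol from a table of 46517 genes and followed over 1479 single cells of the mouse urinary bladder. The cells had been sorted into plates, made into Smart-seq2 libraries and placed in 11 clusters by the authors. The study asked how fibroblasts differ among themselves and from mural cells, the pericytes and smooth muscle cells of the vessel wall. Cluster 10 holds the mural cells and the other 10 clusters hold fibroblasts, among them cluster 5, which carries the Tnc reads. The study identifies fibroblasts just beneath the bladder epithelium by Tnc together with a lack of Cd34, and its text gives them no cluster number.

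All cells came from adult male mice aged 10 to 20 weeks on a C57BL6 background. C57BL6 mice carried no reporter and gave 190 cells. Acta2GFP, Cspg4dsRED and PdgfrbGFP mice carry transgenes in which the promoter of the smooth muscle actin, the NG2 proteoglycan or the PDGF receptor beta gene drives a fluorescent protein, and gave 129, 203 and 810 cells. PdgfraGFP mice carry a nuclear green fluorescent protein at the PDGF receptor alpha gene and gave 147 cells. A reporter marks cells that use its promoter and is not a lineage or a treatment, and all sorts left out cells stained for the endothelial protein CD31. For the isolation of Acta2GFP cells the study added elastase to the digestion. No animal is named in the labels, and combined strains were also used in the study, so the line served as the unit of replication by assumption. PdgfrbGFP cells lay on 3 plates and Cspg4dsRED cells on 2, and 2 of the 6 plates held cells of 2 lines, but a difference between lines cannot be told apart from one between their sorts.

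Matricellular proteins of this kind sit in the matrix without being its main load-bearing fibres. They bind collagens, fibronectin, integrins and growth factors and change how cells attach, spread and respond to signals. Tenascin-C is scarce in most resting adult tissue and abundant in development and repair, whereas tenascin-X is laid along collagen fibrils of resting connective tissue. Thrombospondin-1 and thrombospondin-2 form trimers, restrain the growth of capillaries through CD36 and CD47, and, in the case of thrombospondin-1, activate latent TGF-beta. Thrombospondin-3, thrombospondin-4 and Comp form pentamers and are best known from bone, tendon and cartilage.

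The starts of the 3 members with an edgeR adjusted p under 0.05 between cluster 5 and the other fibroblasts, described further on, are shown as the 250 bases before the RefSeq transcription start, in GRCm38.p6, 5′ to 3′ on the strand of the gene. Capitals mark matches, on either strand, to 6 motifs. The TATA-type element was searched as TATAAA and, in a second spelling, as TATATA. The box bound by Sp1-type factors was spelled GGGCGG. The box bound by the factor NF-Y was spelled CCAAT. The AP-1 element was spelled TGANTCA and reads the same on both strands. The CArG box of serum response factor was searched under its usual definition. The windows are chr4:64047016-64047265 (minus strand) for Tnc, chr17:34670285-34670534 (plus strand) for Tnxb and chr17:14694263-14694512 (minus strand) for Thbs2.
Tnc: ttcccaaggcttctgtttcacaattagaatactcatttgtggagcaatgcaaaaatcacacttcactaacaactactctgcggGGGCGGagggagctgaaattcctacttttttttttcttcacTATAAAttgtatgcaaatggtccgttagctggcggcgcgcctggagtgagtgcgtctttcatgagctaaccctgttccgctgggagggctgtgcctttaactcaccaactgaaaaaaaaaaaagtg
Tnxb: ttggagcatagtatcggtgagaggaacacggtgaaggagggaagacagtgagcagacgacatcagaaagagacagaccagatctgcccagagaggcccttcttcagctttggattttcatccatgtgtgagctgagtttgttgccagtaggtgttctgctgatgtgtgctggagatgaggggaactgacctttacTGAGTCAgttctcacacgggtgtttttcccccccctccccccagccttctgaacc
Thbs2: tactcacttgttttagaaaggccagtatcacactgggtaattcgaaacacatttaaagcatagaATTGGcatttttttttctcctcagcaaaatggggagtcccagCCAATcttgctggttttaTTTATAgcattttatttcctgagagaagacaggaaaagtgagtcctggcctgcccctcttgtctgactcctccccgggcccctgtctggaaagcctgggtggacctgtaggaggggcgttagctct
The Tnc window held the GC-rich box GGGCGG at 167 to 162 bases before the start. It also held, nearer to the start, the element TATAAA at 126 to 121 bases. Among all 32851 promoters of the table, cut to the same length, 32.7% held the first and 12.4% the second. The Tnxb window held TGAGTCA at 55 to 49 bases before the start, a form of the AP-1 element, which 6.75% of promoters held. The Thbs2 window held CCAAT once on each strand, at 186 to 182 and 144 to 140 bases before the start, and 33.85% of promoters held that box. Thbs2 also had the first TATA-type element on its other strand, at 126 to 121 bases before the start, where it reads TTTATA. The second TATA spelling, which 5.25% of promoters held, and the CArG box, which 1.47% held, were found in none of the windows shown. RefSeq lists a second start for Tnc further inside the gene, and the window before that start held TATATA at 29 to 24 bases before it. The Tnc window also lies within 8030451A03Rik, a long noncoding gene on the opposite strand that overlaps Tnc. These matches describe letters and not sites.

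The members differed widely in abundance. Thbs2 gave 552170 reads, 59.1% of all reads of the 8 genes. Tnxb gave 212182, Thbs3 77057, Thbs1 63262 and Tnc 27843. The remaining members gave few reads in the cells sorted here. Thbs4 gave 1185 reads in 25 cells, Comp 409 in 25 cells and Tnn 65 in 16 cells. Tnr, the tenascin of the nervous system and no member here, gave 121 reads spread over 98 cells with at most 7 in a cell. The genes lie, in GRCm38 coordinates of GENCODE M21, at chr4:63959785-64047015 (Tnc), chr17:34670535-34719815 (Tnxb), chr1:160085029-160153580 (Tnn), chr2:118111876-118127133 (Thbs1), chr17:14665500-14694235 (Thbs2), chr3:89215180-89226837 (Thbs3), chr13:92751590-92794818 (Thbs4) and chr8:70373558-70382066 (Comp). Counts were made per gene over its exons. Strand was not stated for the counting, so reads of Tnc, Tnxb, Thbs1 and Thbs3 cannot be told apart from those of genes that overlap them on the opposite strand (8030451A03Rik, Gm24389 and Cyp21a2-ps, Gm29233, and Mtx1).

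Levels are given as reads per 500000 reads of the cell's own genes, first averaged within each line with at least 3 cells in the cluster and then across those lines, with the SD between lines. Total reads per cell ran from 50276 to 1446059. The median depth was 261652 reads in cluster 5, 130406 in cluster 10 and between 110330 in cluster 4 and 306896 in cluster 6 over the fibroblast clusters, so shares of cells were taken after thinning each cell to 50000 reads, which left out 6 cells. A cell was counted for a gene when at least 10 thinned reads remained. The summed levels of marker genes describe the labels and do not check them. The clustering used these same counts, and the study drew some of the markers from its own cells. The summed level of 8 mural markers was 10435 ± 2142 in cluster 10 (n = 4 lines) and between 53.4 and 578 elsewhere, and that of 6 fibroblast markers was 1130 ± 673 in cluster 10 and 7945 or more elsewhere. Bmp5, Bmp7, Cxcl14, Ptgs1 and Col12a1, taken as markers of the cells beneath the epithelium and named in part by the study on these cells, summed to 1985 ± 871 in cluster 5 and to at most 252 elsewhere. Summed endothelial, immune, urothelial, glial and skeletal muscle markers stayed at or below 69.1 in every cluster, a description and no check, since the authors had already taken out cells with endothelial or immune signatures and cells lacking both Pdgfra and Pdgfrb.

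**Figure D1:**
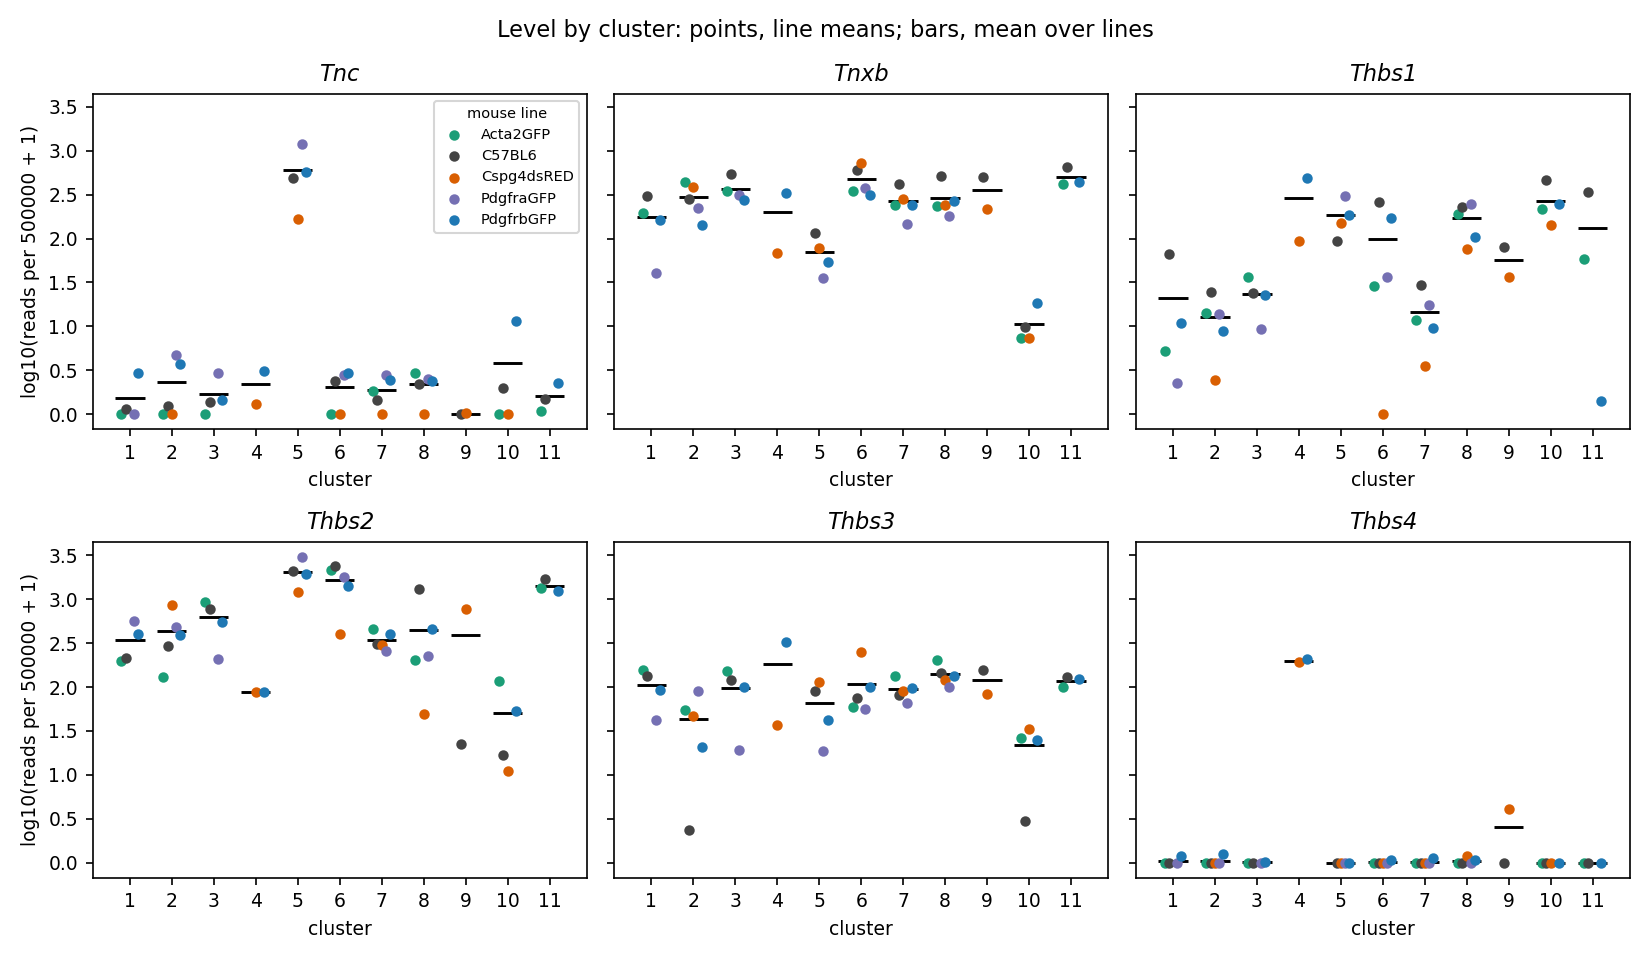
Level of 6 members in clusters 1 to 11, as log10 of reads per 500000 plus 1, with a point for each line of at least 3 cells and a bar for the mean over lines. Tnc stands high in cluster 5 and near 0 elsewhere, the bars of Tnxb are lowest in clusters 5 and 10, and Thbs1 is high in clusters 4, 10, 5 and 8.

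Tnc, which encodes tenascin-C, was the member with the narrowest pattern among the 5 abundant ones. In cluster 5 its level was 486 in C57BL6, 164 in Cspg4dsRED, 579 in PdgfrbGFP and 1192 in PdgfraGFP cells, a mean of 605 ± 429.6 (SD, n = 4 lines). In the other fibroblast clusters of the same lines it was 0.568, 0.0539, 1.31 and 2.1, so that no line of cluster 5 came near the rest. The log2 difference was 9.79 (SE 0.51, adjusted p = 2.47e-05, edgeR quasi-likelihood test with Benjamini-Hochberg adjustment over 13988 genes, higher in 4 of 4 lines). Tnc is 1 of the 2 genes by which the study identifies these fibroblasts, the other being Cd34, at 89.5 ± 45.5 in cluster 5 and 619 or more in the other fibroblast clusters. The clustering had used these same counts. This and the following tests therefore state only whether a difference recurred from line to line, and do not stand as evidence for the clusters. The p-values measure only the spread between sums of cells of different lines.

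Within cluster 5 the Tnc level ranged from 0 to 4493 between cells, with a median of 531. At least 10 thinned Tnc reads were found in 62 of 76 cells (81.6%, exact 95% interval 71.0% to 89.6%). Of the other 14 cells 8 had no Tnc read, and their median levels were 238 for Cd34, 80.8 for Bmp5, 18.75 for Acta2 and 91.7 for Tnxb, beside 36.8, 317, 478 and 10.15 in the 62, so the levels of cluster 5 average over both. These medians pool the lines, and not every line repeated them, with Acta2 at 197.8 in 5 and 217.7 in 10 C57BL6 cells, Bmp5 at 278 in 4 and 325 in 32 PdgfrbGFP cells, and a Tnxb median of 0 on both sides in PdgfraGFP cells. In cluster 10, at a median depth of 130406 reads against 261652 in cluster 5, the share was 1 of 125 cells (0.8%, 0.0203% to 4.38%). That 1 cell, from a PdgfrbGFP mouse, had 50 Tnc reads, a level of 444, with no cluster 5 cell in its plate row or column, and it carried most of the cluster 10 mean of 2.85 ± 5.06 (n = 4 lines). Intervals cover counting error only, since Smart-seq2 has no molecular identifiers and reads of 1 molecule are not independent.

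Low Tnc counts outside cluster 5 followed the position in the plate. Where neither the row nor the column held a cluster 5 cell, 7 of 583 cells outside cluster 5 had any Tnc read (1.20%, 0.484% to 2.46%). With 1 to 4 neighbours of that kind it came to 246 of 726 cells (33.9%, 30.4% to 37.5%), and with 5 or more to 71 of 94 (75.5%, 65.6% to 83.8%). Among groups of at least 5 cells the contrast was widest on plate bladder_881s, where the shares were 0 of 32, 71.4% and 98.3%. On plate bladder_352s, with 2 Cspg4dsRED cells of cluster 5, they were 1.59% without and 0 of 49 with 1 to 4 neighbours. The median depth rose alongside, from 157957 reads without neighbours to 239622 and 321192, while within bladder_881s it was 387972, 376556 and 377428.

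Summed over fibroblasts outside cluster 5, the 495 cells without such a neighbour held 9 Tnc reads, a level of 0.0380, against 766 reads and a level of 1.72 in the 783 cells with one. The 76 cells of cluster 5 held 27005 reads, a level of 654. When the comparison of cluster 5 was repeated on cells of the other clusters with no cluster 5 neighbour, which left 3 lines, the log2 difference of Tnc became 13.51 (edgeR adjusted p = 1.29e-05). That value depends on the prior count of the fit, as C57BL6 then had no Tnc read outside cluster 5. With so few reads in the rest, Tnc passed the filter on low counts there only through cluster 5, where it is high. The value and its p therefore restate that level and support nothing further. Given the plate positions above, a single Tnc read outside cluster 5 was not read as expression.

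Tnxb, which encodes tenascin-X, showed the opposite order. It was found in all fibroblast clusters, and its mean level was lowest in cluster 5 among them. Its level in cluster 5 was 114 in C57BL6, 76.3 in Cspg4dsRED, 53.3 in PdgfrbGFP and 34.4 in PdgfraGFP cells, against 492, 221, 259 and 232 in the other fibroblast clusters of these lines. Every cluster 5 value lay below every other one. The mean was 69.5 ± 34.3 against 301 ± 128 (n = 4 lines), a log2 difference of -2.33 (SE 0.38, edgeR adjusted p = 0.0152, lower in 4 of 4 lines). The median gene of this comparison stood at -0.69, and relative to it Tnxb stood at -1.64. With the median gene set to 0, Tnxb missed the threshold (edgeR adjusted p = 0.0906).

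In cluster 10 Tnxb was low, with 6.26 in Acta2GFP, 8.71 in C57BL6, 6.34 in Cspg4dsRED and 17.6 in PdgfrbGFP cells, against 347, 461, 218 and 249 in the fibroblasts of these lines. The mural and fibroblast lines did not overlap. The log2 difference was -5.05 (SE 0.63, edgeR adjusted p = 2.58e-05, n = 4 lines), with the median gene of this comparison at -0.81. The share of cells with at least 10 thinned Tnxb reads was 1.6% in cluster 10 (0.194% to 5.66%), 18.4% in cluster 5 (10.5% to 29.0%) and 84.3% in cluster 11 (71.4% to 93.0%), where it was highest. The share in cluster 5 depends on the cut, as it was 36.8% without thinning and 55.3% when 1 thinned read was enough. At these cuts cluster 4 lay below cluster 5, with 30.4% and 38.1%, whereas at 10 thinned reads it lay above, with 33.3%. The median cell stood at 0 in cluster 4 and at 11.4 in cluster 5.

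Among the other fibroblast clusters Tnxb levels overlapped. Cluster 11 led with 505 ± 134.5 (n = 3 lines), followed by cluster 6 with 475 ± 184 and cluster 3 with 369 ± 121, and cluster 1 came last by line means with 176 ± 110.3. Over all cells cluster 4 was lower, at 112.5 against 170.9 in cluster 1, as its line mean of 198 set 4 PdgfrbGFP cells at 328 beside 17 Cspg4dsRED cells at 67.7. Neighbours in this order overlapped between lines throughout, and the first pair that did not was cluster 5 above cluster 10. The test for any difference among clusters 1 to 4, 6 to 9 and 11 did not pass for Tnxb (F = 2.18, edgeR adjusted p = 0.343), with cluster 1 fitted at -1.16 (SE 0.39) on the log2 scale from the mean of the others. The 30 cluster 5 cells with no cell of 500 or more Tnxb reads in their row or column, of 3 lines, had a mean Tnxb level of 33.9, against 54.6 over all 61 cells of these lines. In cluster 10 the 2 means were 9.63 and 10.1, in cluster 11 they were 409.7 and 428 and in cluster 6 they were 444 and 441.

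The other tenascins were near silent. Tnn, which encodes tenascin-W, a protein known from bone, had at least 10 reads in 3 cells, with 15 at most, and did not pass the filter on low counts in any comparison. Its reads came from clusters 1, 2, 6 and 8 in the main, with none in clusters 4, 10 and 11. Cluster 10 had 0 of 125 cells with a Tnn read, and an exact 95% interval for that share reaches 2.91%.

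Thbs2, which encodes thrombospondin-2, was the most abundant member, and in cluster 5 it was so per length too. There it reached 294 ± 106 reads per 500000 and kilobase of exon, against 77.9 ± 55.3 for Tnc, 30.2 ± 14.8 for Thbs1, 13.5 ± 9.05 for Thbs3 and 5.69 ± 2.81 for Tnxb (n = 4 lines each). On the same scale it did not lead in cluster 10, with Thbs1 at 43.9 and Thbs2 at 6.99. Nor did it lead in cluster 4, with Thbs4 at 60.3 and Thbs2 at 12.4. As reads per 500000, Thbs2 in cluster 5 was 2106 in C57BL6, 1203 in Cspg4dsRED, 1912 in PdgfrbGFP and 3005 in PdgfraGFP cells, against 853, 558, 639 and 677 in the other fibroblast clusters. Again the lines did not overlap, and the means were 2056 ± 742 and 682 ± 124. The log2 difference of 1.45 (SE 0.24, edgeR adjusted p = 0.0178), seen in 4 of 4 lines, passed on p and stayed under the fold threshold of 2 on the log2 scale. With the median gene set to 0 it was 2.15 (edgeR adjusted p = 0.00127) and passed both, whereas with DESeq2 it was 1.57 and missed the threshold on p as well (adjusted p = 0.152).

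Mean Thbs2 levels were highest in clusters 5, 6 and 11, with 2056 ± 742, 1641 ± 788 and 1423 ± 238. Single lines crossed this order, as Cspg4dsRED stood at 404 in cluster 6, over 3 cells, and C57BL6 at 1295 in cluster 8, above the 1235 of PdgfrbGFP in cluster 11. Cluster 3 followed with 619 ± 317, and no line of it reached the lines of cluster 11. Clusters 8, 2, 9, 1 and 7 lay between 445 and 344 with overlapping lines. Among cells with under 500 Thbs2 reads, 10 or more reads were found in 5 of 54 cells (9.26%) with no cell of 500 or more in the row or column, at a median depth of 110474 reads, and in 627 of 754 (83.2%) with 5 or more such cells, at 232564 reads. Of the 54 cells, 33 were Cspg4dsRED cells of the mural cluster 10, which has little Thbs2, and clusters 1, 3, 6 and 11 gave none. Position and cell type cannot be told apart in this contrast. Cells with no such neighbour averaged 0 in cluster 8, in 4 Cspg4dsRED cells against 47.7 over all 14 of that line, and 194 in cluster 9, in 5 Cspg4dsRED cells against 768 over all 85. Clusters 1, 2, 3, 5, 6, 7 and 11 had no line with 3 such cells, and the part of plate neighbours in their Thbs2 levels was not tested. Cluster 9 averaged 85 Cspg4dsRED cells at 768 with 3 C57BL6 cells at 21.4, and its mean over all cells was 722, above the 623 of cluster 3. By line means cluster 4 was lowest of the fibroblasts at 87.1 ± 0.583 (n = 2 lines). The narrow spread in cluster 4 does not measure how firm its level is, since the mean over all its cells was 122, with 494 in the 2 PdgfraGFP cells, and that over cells with no cell of 500 or more Thbs2 reads in the row or column was 7.16, in 4 Cspg4dsRED cells, against 86.7 over all 17 cells of that line. Every cell of cluster 5 had at least 10 thinned Thbs2 reads (76 of 76, exact 95% interval 95.3% to 100%), as had 93.6% of cluster 6 (89.1% to 96.6%). The test over clusters 1 to 4, 6 to 9 and 11 fell just short for Thbs2 (F = 4.17, edgeR adjusted p = 0.0545). Its fitted differences from the mean of the other clusters were 1.96 (SE 0.42) in cluster 6, 1.49 (SE 0.54) in cluster 11 and -2.49 (SE 0.88) in cluster 4 on the log2 scale. It passed under 7 of the alternatives, among them DESeq2 (adjusted p = 0.0285), and failed under 4, with edgeR adjusted p of 0.156 with at least 10 cells per sum and 0.267, 0.184 and 0.484 without Acta2GFP, PdgfraGFP and PdgfrbGFP.

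Cluster 10 had little Thbs2. The level was 117 in Acta2GFP, 15.7 in C57BL6, 10.1 in Cspg4dsRED and 52.6 in PdgfrbGFP cells, against 974, 953, 572 and 699 in fibroblasts of these lines. The groups lay apart, and the log2 difference was -4.66 (SE 0.60, edgeR adjusted p = 3.77e-05, n = 4 lines). At least 10 thinned reads remained in 11.2% of mural cells (6.26% to 18.1%). In the 33 Cspg4dsRED cells of cluster 10 with no cell of 500 or more Thbs2 reads in their row or column the Thbs2 level was 1.24, against 10.1 over all 65 of them. How much of the mural Thbs2 count arose in the mural cells themselves was not tested.

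**Figure D2:**
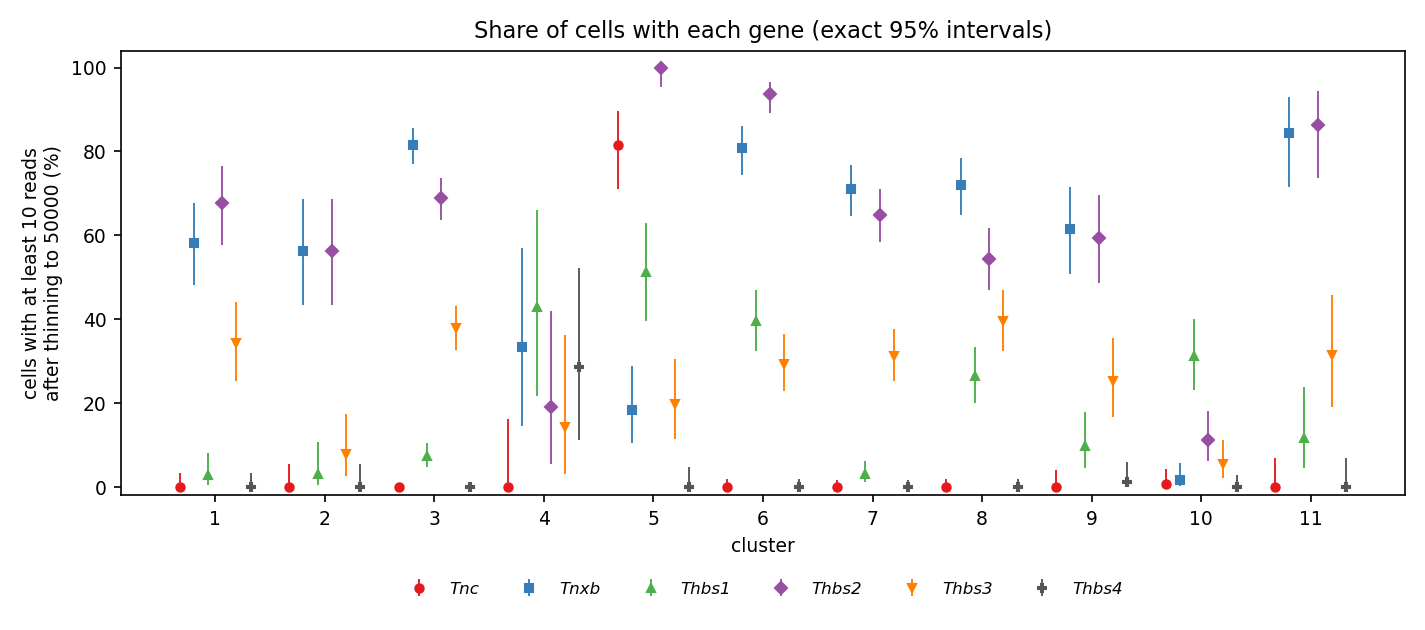
Percent of cells with at least 10 reads of a member after thinning to 50000 reads, by cluster, with exact 95% intervals. Thbs2 reaches 100% in cluster 5 and 11.2% in cluster 10, Tnxb 84.3% in cluster 11 and 1.6% in cluster 10, and Tnc 81.6% in cluster 5 against 0.8% in cluster 10.

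Thbs1, which encodes thrombospondin-1, was the only member called higher in mural cells. Its level in cluster 10 was 213 in Acta2GFP, 466 in C57BL6, 141 in Cspg4dsRED and 247 in PdgfrbGFP cells, against 53.1, 81.3, 44.7 and 65.5 in fibroblasts. The lines did not overlap, with means of 267 ± 139.9 and 61.2 ± 15.9. The log2 difference was 2.09 (SE 0.51, edgeR adjusted p = 0.0163), just above the fold threshold, and 4 of 4 lines were higher. On plate bladder_074s the order was the other way, with 34.5 in 4 mural PdgfrbGFP cells and 55.3 in 361 fibroblasts of the same line. It fell to 1.82 without the filter on low counts and to 1.83 with sums per plate, both under the fold threshold, and to 1.85 without C57BL6, which holds 3 of the 125 mural cells. Without Cspg4dsRED and without PdgfrbGFP it missed the threshold on p (edgeR adjusted p = 0.0737 and 0.0803).

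Few cells carried the Thbs1 reads. The median cell of cluster 10 had a level of 4.75, the upper quartile 169 and the highest cell 2897, and 39 of 125 cells had at least 10 thinned reads (31.2%, 23.2% to 40.1%). In cluster 5 the share was 51.3% (39.6% to 63.0%), in cluster 4 42.9% (21.8% to 66.0%), in cluster 6 39.6% (32.5% to 47.0%) and in cluster 8 26.4% (20.1% to 33.4%). In cluster 7 it was 3.07% (1.24% to 6.22%).

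Thbs1 also differed among fibroblast clusters. The order of levels ran from 292 ± 282 in cluster 4 (n = 2 lines) over 184 ± 90.1 in cluster 5 and 168 ± 76.2 in cluster 8 down to 13.4 ± 9.82 in cluster 7 and 11.8 ± 8.04 in cluster 2, with overlapping lines between neighbours. The first place rests on 4 PdgfrbGFP cells at 492 against 92.4 in 17 Cspg4dsRED cells, and over all cells cluster 4 stood at 168, below the 201 of cluster 5. Over clusters 1 to 4, 6 to 9 and 11 the difference passed (F = 7.57, edgeR adjusted p = 0.00298), with fitted log2 differences of 4.12 (SE 0.83) in cluster 4, 2.19 (SE 0.59) in cluster 8 and -2.76 (SE 0.83) in cluster 2. It did not pass without PdgfrbGFP (edgeR adjusted p = 0.0977). Cluster 5 against the other fibroblasts stood at 1.60 (SE 0.52, edgeR adjusted p = 0.215) with levels of 91.6, 151, 305 and 186.5 against 80.4, 42.4, 55.7 and 59.5 in C57BL6, Cspg4dsRED, PdgfraGFP and PdgfrbGFP. These lines did not overlap, yet the difference missed the threshold. Over cells with no cell of 500 or more Thbs1 reads in their row or column, beside all cells of the same lines, Thbs1 stood at 261 beside 292 in cluster 4, 219 beside 168 in cluster 8, 191 beside 184 in cluster 5, 189.9 beside 200.5 in cluster 10 and 152 beside 98.0 in cluster 6. In clusters with less Thbs1 it stood at 6.71 beside 11.4 in cluster 2, 5.63 beside 13.4 in cluster 7 and 3.21 beside 20.2 in cluster 1, but at 30.45 beside 22.2 in cluster 3 and 37.4 beside 28.9 in cluster 11, and the 85 cells of 1 line in cluster 9 had no such neighbour. The Thbs1 mean of 132 in cluster 11 rests on 3 C57BL6 cells at 339, as its Acta2GFP and PdgfrbGFP cells stood at 57.5 and 0.397.

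Thbs1 is an early response gene in many cells, and the summed level of 22 immediate-early genes is given beside it, without a test of the sum. It was 17338 ± 7038 in cluster 10 and 11976 ± 5421 in cluster 4. It came to 10665 ± 1345 in cluster 9, 10373 ± 2636 in cluster 11, 9568 ± 691.7 in cluster 6 and 8909 ± 2356 in cluster 8, where Thbs1 stood at 56.7, 132, 98.0 and 168 by line means and at 35.4, 68.4, 149.9 and 133 over all cells. Clusters 7 and 2, low in Thbs1, had sums of 4215 ± 850.2 and 5164 ± 1028. Cluster 5 had the lowest sum, 2286 ± 1018, while its Thbs1 mean lay below those of clusters 4 and 10 by line means and above them over all cells, at 201 against 168 and 194. Within single lines and clusters Spearman's rho between Thbs1 and that sum over cells ran from -0.22 to 0.39, a description over cells that share plates and depth. Their part in the Thbs1 differences was not tested.

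Thbs3, which encodes thrombospondin-3, was spread over all fibroblasts. Its level was 138.9 ± 38.5 in cluster 8, 65.0 ± 43.7 in cluster 5 and 41.9 ± 33.5 in cluster 2. In cluster 4 it was 180.5 ± 204, with 325 in 4 PdgfrbGFP cells against 36.0 in 17 Cspg4dsRED cells, and over all cells the mean of cluster 4 was 83.1, below the 134 of cluster 8. Neighbours in the order of line means overlapped throughout. No difference among fibroblast clusters passed (F = 1.34, edgeR adjusted p = 0.668), and cluster 5 stood at -0.52 (SE 0.49, edgeR adjusted p = 0.828) against the others. In cluster 10 the level was 25.5 in Acta2GFP, 2.01 in C57BL6, 32.0 in Cspg4dsRED and 23.97 in PdgfrbGFP cells, against 129, 100.3, 83.2 and 100.2 in fibroblasts. The lines lay apart, but the log2 difference of -2.70 (SE 0.89, edgeR adjusted p = 0.0702) did not pass. It passed with DESeq2, without the filter, with sums per plate and without C57BL6.

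Thbs4, which encodes thrombospondin-4, was held by 7 cells with at least 10 reads. Of these, 6 were among the 23 cells of cluster 4, with 68 to 352 reads, and 1 was in cluster 9, with 86 reads. They came from Cspg4dsRED, PdgfraGFP and PdgfrbGFP mice on 3 plates. The level in cluster 4 was 191 in Cspg4dsRED and 206 in PdgfrbGFP cells, a mean of 198 ± 11.1 (n = 2 lines), against at most 1.55 in any other cluster. The PdgfrbGFP value in cluster 4 rests on 1 cell. Thbs4 passed the filter on low counts only through cluster 4, where it is high, so its call over the fibroblast clusters (F = 7.87, edgeR adjusted p = 0.0191) restates that level and supports nothing further. The call was lost with DESeq2 (adjusted p = 0.414) and without Cspg4dsRED (edgeR adjusted p = 0.179) or PdgfrbGFP (edgeR adjusted p = 0.681). In 4 of the 6 cells, all Cspg4dsRED, the other members had at most 1 read, whereas the PdgfrbGFP cell with 352 Thbs4 reads also held 289 of Thbs1 and 309 of Thbs3. Cells with 1 to 4 Thbs4 reads were found where a Thbs4 cell shared the row or column, in 18 of 126 cells (14.3%, 8.69% to 21.6%). Elsewhere 0 of 1346 cells had a read, and an exact 95% interval reaches 0.274%.

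**Figure D3:**
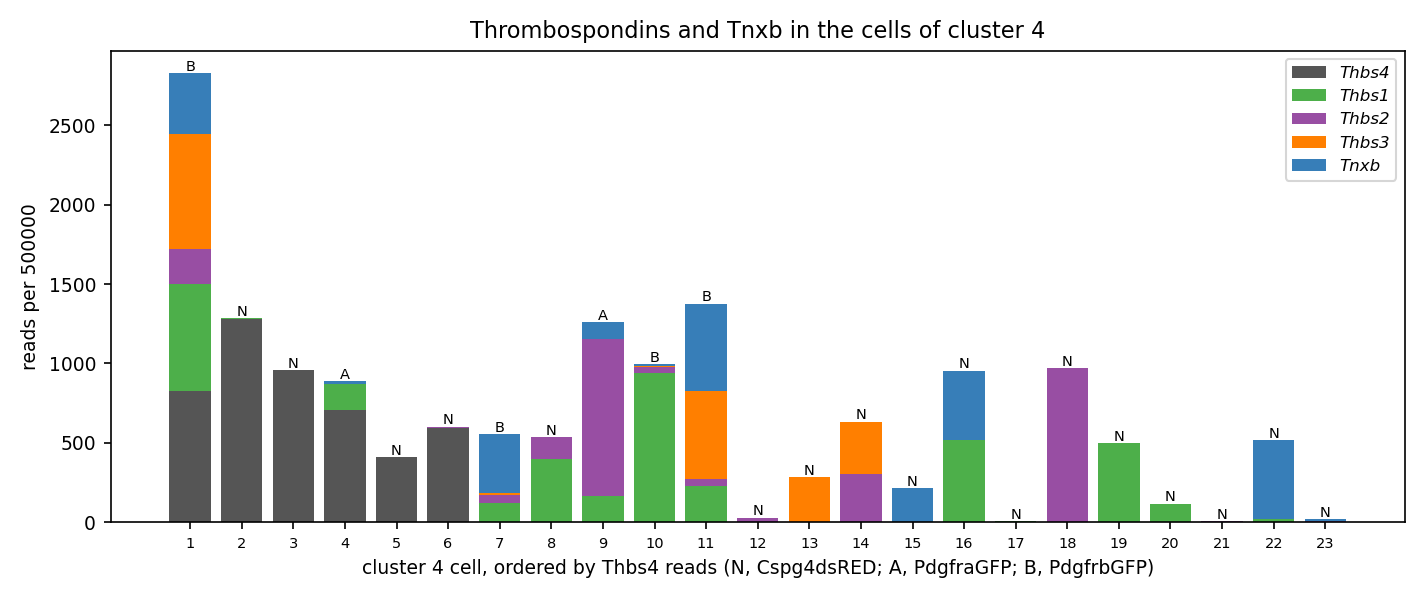
Reads per 500000 of Thbs4, Thbs1, Thbs2, Thbs3 and Tnxb in each of the 23 cells of cluster 4, as stacked bars, with N, A and B above the bars for Cspg4dsRED, PdgfraGFP and PdgfrbGFP. The 6 Thbs4 cells stand at one end, and in 4 of them Thbs4 makes up nearly the whole bar.

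Comp reached 10 reads in 2 cells. A cluster 7 cell from a PdgfrbGFP mouse had 259 reads, a level of 154, and a cluster 10 cell from a Cspg4dsRED mouse had 126 reads, a level of 757. Comp passed no filter on low counts. Of the skeletal group of thrombospondins, then, Thbs3 was common and Thbs4 and Comp were confined to 7 and 2 cells with at least 10 reads.

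Of the 8 members, 5 passed the filter on low counts for cluster 5 against the other fibroblasts, and Tnn, Thbs4 and Comp did not. Called were Tnc, higher, and Tnxb, lower, at an adjusted p under 0.05 and an absolute log2 difference of at least 2, where 0.879% of 13988 genes were called, 0.343% higher and 0.536% lower. For cluster 10 against all fibroblasts the same 5 were tested, and Thbs1 was called higher and Tnxb and Thbs2 lower, where 8.34% of 13861 genes were called, 2.28% higher and 6.06% lower. Tnc stood at -5.04 (SE 1.77, edgeR adjusted p = 0.0900) there and was not called, though it was with sums per plate (edgeR adjusted p = 0.0140) and with DESeq2 (adjusted p = 0.00146), with 0, 1.00, 0 and 10.4 in Acta2GFP, C57BL6, Cspg4dsRED and PdgfrbGFP mural cells against 0.279, 39.5, 3.63 and 28.5 in fibroblasts. These fibroblast values include cluster 5. Without it they were 0.279, 0.568, 0.0539 and 1.31, beside a mural mean of 2.85, or 0.389 without the 1 mural cell of 50 reads. Over the 9 remaining fibroblast clusters 6 members were tested, with Thbs4 in addition, and Thbs1 was called, as was Thbs4 through its cells of cluster 4, where 2.54% of 14776 genes were. The comparisons of clusters 5 and 10 share most of their fibroblast cells and are set side by side only.

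**Figure D4:**
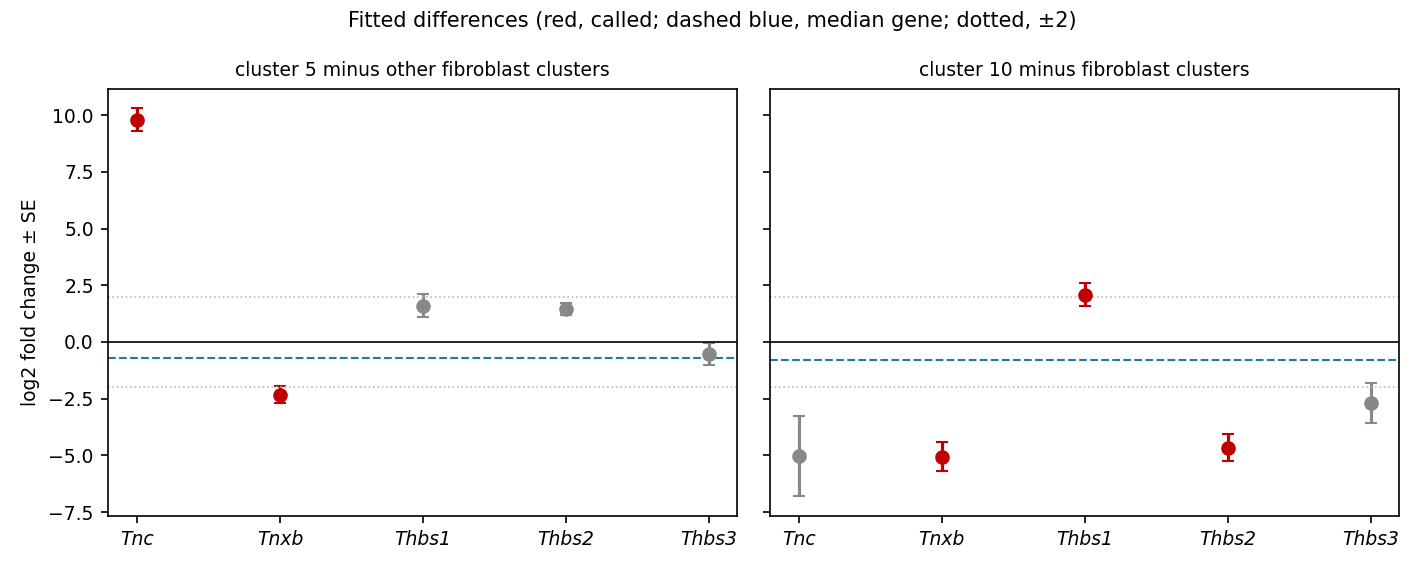
Log2 difference of the 5 tested members with its standard error, for cluster 5 against the other fibroblast clusters and for cluster 10 against all fibroblast clusters, from edgeR on sums of 4 lines each. Red points passed both thresholds, the dashed line is the median gene (-0.69 and -0.81) and the dotted lines mark the fold threshold of 2 on the log2 scale.

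The number of members per cell differed between clusters. The mean number of members with at least 10 thinned reads was 2.71 per cell in cluster 5, 2.43 in cluster 6 and 0.512 in cluster 10, where 74 of 125 cells had none. In cluster 5 all 62 Tnc cells also had Thbs2, 34 of them (54.8%) had Thbs1 and 7 (11.3%) had Tnxb, beside 51.3% and 18.4% of all its cells. These 7 were 50% of the 14 Tnxb cells of the cluster. In cluster 6, 142 cells had both Thbs2 and Tnxb, 81.1% of its Thbs2 cells and 94.0% of its Tnxb cells, close to the 80.75% and 93.6% of all its cells that had Tnxb and Thbs2. These are counts of cells from shared plates and carry no test.

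Genes with the most similar pattern were sought over 43 sums of a line and a cluster, among 9848 genes, as the Pearson correlation of log2(level + 1). These sums share lines, plates and depth. For Tnc the closest were Car3, a carbonic anhydrase (r = 0.953), Slc14a1, a urea transporter (r = 0.933), and Notum, an extracellular Wnt deacylase (r = 0.931). For Tnxb they were Fbln2, the matrix protein fibulin-2 (r = 0.914), Entpd2 (r = 0.844) and Bicc1 (r = 0.840). Thbs2 came closest to Gm13372 (r = 0.788), the collagen receptor subunit Itga11 (r = 0.743) and Spon2 (r = 0.738). Thbs1 followed Csrp1 (r = 0.686), Ift22 (r = 0.680) and Smtn, the smooth muscle gene smoothelin (r = 0.671). Thbs3 followed Cnpy3 (r = 0.792), Sqstm1 (r = 0.789) and Ncstn (r = 0.749). Among members, the highest r was 0.507 between Tnxb and Thbs3 and the lowest was -0.32 between Tnxb and Thbs1.

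Receptors and surface partners of these proteins had a summed level over 22 genes of 1121 ± 374 in cluster 5 and 1441 ± 392 in cluster 10. For cluster 5, 0 of the 17 genes tested passed both thresholds with edgeR, where 0.879% of all genes did. An unadjusted edgeR p under 0.05 was found for 6 of them, as for 1458 of all 13988 genes, and 6 passed with DESeq2, which called 9.64% of all genes, and the median log2 difference was -0.58 beside -0.69 over all genes. For cluster 10, 4 of 19 were called, beside 8.34% of all genes. Itga8 and Itga7, integrin subunits of smooth muscle, were at levels of 133 and 211 against 0.320 and 1.33 (log2 difference 10.37, SE 1.65, and 9.67, SE 1.22). With so few fibroblast reads these log2 values depend on the prior count of the fit. Egfr fell by 3.95 (SE 1.14), from 60.5 to 9.23. Among the other fibroblast clusters 1 of 18 was called, beside 2.54% of all genes, the integrin subunit Itgb3, highest in cluster 4 at a level of 40.0.

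Lists of other matricellular genes and of collagen fibril partners were read beside the members. For cluster 5, where 0.879% of all genes were called, 1 of 16 matricellular genes was called with edgeR, Sparcl1, at 228 against 1757. With DESeq2 it was 6 of 16, beside 9.64% of all genes, 11 had an unadjusted edgeR p under 0.05, and the median log2 difference was -1.93 beside -0.69 over all genes. Of 12 collagen fibril partners 2 were called, Col12a1, a fibril-associated collagen that binds tenascins (684 against 42.0, log2 difference 4.15, SE 0.35), and Col6a3 (966 against 155), and the median over the 12 was 1.07 beside -0.69 over all genes. For cluster 10, where 8.34% of all genes were called, 10 of the 12 were called lower with a median of -3.23 beside -0.81, among them Col14a1 (34.2 against 909) and Fn1, the fibronectin gene (14.2 against 266). Of 16 matricellular genes 4 were called lower there, led by Tgfbi (4.64 against 311), Fbln5 (16.2 against 579.6) and Smoc2 (48.5 against 1192). Among the other fibroblast clusters, where 2.54% of all genes were called, edgeR called 7 of 16 matricellular genes and 8 of 12 collagen partners, and DESeq2, which called 6.09% of all genes, called 8 and 4. Of those called by edgeR, Smoc2, Sparc and Ccn2 were highest in cluster 6, and Col1a1, Col1a2 and Col6a1 were lowest in cluster 4.

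Genes known from tendon and cartilage, where Thbs4 and Comp are best known, summed to between 28.0 ± 23.1 in cluster 10 and 1115 ± 354 in cluster 8 over 15 genes. Scx was at 0 in all clusters, and between 3 and 8 of the genes were at 0 in each. Of the 15, 7 were tested for cluster 5 and 3 were called, beside 0.879% of all genes: Col11a1 was higher (71.3 against 1.17), and C1qtnf3 (7.21 against 323) and Cilp (2.53 against 133) were lower. For cluster 10, 3 of 8 were called, beside 8.34% of all genes, and all were lower, Fmod, C1qtnf3 and Cilp. Among the other fibroblast clusters 4 of 9 were called, beside 2.54% of all genes, with Cilp highest in cluster 9 (563) and Sox9 highest in cluster 4 (90.2), the cluster of the Thbs4 cells. Of 21 immediate-early genes, 2 were called lower in cluster 5 with edgeR, Nr4a1 (82.3 against 822) and Dusp1 (135 against 891), beside 0.879% of all genes. DESeq2 called 7 there, beside 9.64% of all genes, 14 had an unadjusted edgeR p under 0.05, and the median log2 difference was -2.14 beside -0.69. In cluster 10, 5 were called higher, beside 8.34% of all genes called in either direction, with Atf3 at 832 against 119.6. Among the other fibroblast clusters 5 of 21 were called, led by Egr1, Junb and Fos, all highest in cluster 4 and lowest in cluster 7.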

How the data were processed

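Single cells were sorted from dissociated bladders into 384-well plates that held ERCC spike-in RNA and were made into Smart-seq2 libraries. The authors trimmed the reads, mapped them to GRCm38 (mm10) with TopHat2 and Bowtie, removed what their methods call doublets with samtools, and deposited raw read counts per gene from featureCounts of the Subread package. The submitters' processing notes also list bcl2fastq and Bowtie2. The annotation release used for counting and the strand setting are not given in the sources used here, while the study's reporting summary gives the tools' versions. The authors had filtered cells on reads, genes, spike-in and mitochondrial shares, set sort gates against doublets, and removed cells with very many genes, cells lacking both Pdgfra and Pdgfrb, and cells with signatures of other types such as endothelial or immune cells. No further filter and no doublet caller was applied. The deposited table held 1479 cells with 50276 to 1446059 reads, the number of cells the study gives for this organ, 46517 genes and 92 ERCC rows, which were left out of totals and tests. All columns matched a sample (0 without one).

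Of the gene identifiers, 46005 were named and placed with GENCODE M21. Promoters came from RefSeq (GRCm38.p6), where 6 of the 8 members had one, and those of Thbs1 and Comp were not used here. Counts were summed per mouse line and class of cells, for lines with at least 3 cells in the class. The sums were tested with edgeR 4.0.16 in R 4.3.3 (quasi-likelihood test after TMM scaling and filterByExpr, blocked on the line), and adjusted over all genes tested by Benjamini and Hochberg. A difference was called at an adjusted p under 0.05 and, for 1 cluster against others, at a log2 fold change of 2 or more in either direction. The scripts were tested on simulated counts. Levels, thinned shares and their exact Clopper-Pearson 95% intervals were computed with Python 3.11.15, numpy 2.4.6, scipy 1.17.1 and pandas 2.3.3, and plots with matplotlib 3.10.9. Intervals and limits cover counting error only.

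The text names all 8 members and Tnr, at most 3 called genes per list and comparison (largest absolute log2 fold change, or largest F), and the 3 genes most correlated with each of the members found at 10 thinned reads in at least 50 cells. Marker genes and genes that overlap members are named besides. Members and lists were chosen with earlier results of these data known. Alternatives were median-of-ratios scaling, scaling to the median gene, DESeq2 1.42.0, no filter, sums per plate, no block, at least 10 cells per sum, leaving out each line, shares without thinning or at 1 read, levels over all cells and levels without cells that had a cell of 500 or more reads in the row or column. Comparison of cluster 5 with cells lacking a cluster 5 neighbour, Tnc in cluster 10 without 1 cell, and the setting of those last levels beside all cells of the same lines, were added after seeing the data.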

Additional observations from a re-analysis of the deposited data

Results flagged for a closer look

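Of 46 groups of 4 or 5 lines, each the levels of 1 member in 1 cluster with at least 10 reads, 11 held a line far from the others by Dixon's test. Chance gives about 5% for normally distributed levels. Groups whose few reads lie in 1 line are not of that kind, so the 11 cannot be set against that rate. No cause was tested.

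In Tnc, PdgfrbGFP stood apart in cluster 1, at 1.92 against 0.156 in the nearest line, and in cluster 10, at 10.4 against 1.00, where 1 cell held 50 reads and the cluster mean was 2.85 with and 0.389 without it. In Tnxb, C57BL6 stood at 513 in cluster 8 against 267.5 in the nearest line. In Thbs1, C57BL6 stood at 65.6 in cluster 1 against 9.85, over 9 cells. In Thbs3, Cspg4dsRED stood at 249 in cluster 6 against 98.0, over 3 cells. The rare members gave the remainder, each from counts in a few cells. Tnn stood at 0.186 in cluster 1, 1.51 in cluster 2 and 0.347 in cluster 8 of PdgfrbGFP, with the other lines at 0, and at 0.895 in cluster 6 of C57BL6 against 0.0753. Comp stood at 1.16 in cluster 7 of PdgfrbGFP against 0.163 and at 11.7 in cluster 10 of Cspg4dsRED against 0.0305, each owing to 1 cell.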

How the results depend on the processing

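The calls of Tnc and Tnxb in cluster 5 and of Tnxb and Thbs2 in cluster 10 were kept in every setting run, save that of Tnxb in cluster 5 with the median gene at 0. The number of members called stayed at 2 for cluster 5 when each line was left out, beside 87 to 193 of 13262 to 14482 genes. For cluster 10 it lay between 2 and 3, beside 438 to 885 of 13618 to 14377 genes. Among the other fibroblast clusters it lay between 0 and 3, beside 52 to 271 of 14353 to 16636 genes. The 0 came without PdgfrbGFP, where 52 of 16047 genes were called and Thbs1 came closest (edgeR adjusted p = 0.0977). DESeq2 called 5 members for cluster 10, adding Tnc and Thbs3 to the 3, beside 20.9% of all genes. Without the filter 4 were called there (Tnxb, Thbs2, Thbs3 and Thbs4), beside 1477 of 29126 genes. Thbs4 had no read in cluster 10, and its fibroblast reads lay mostly in cluster 4. With sums per plate 4 were called (Tnc, Tnxb, Thbs2 and Thbs3), beside 1508 of 12008 genes. With at least 10 cells per sum, 1 member (Thbs1) in place of 2 was called among fibroblast clusters, beside 203 of 17685 genes. Thbs3 in cluster 5 turned from -0.52 to 0.17 with the median gene at 0, and neither value passed. Thbs4 among fibroblast clusters lost its call also with sums per plate (edgeR adjusted p = 0.322) and with at least 10 cells per sum (edgeR adjusted p = 0.638). The causes were not tested.

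Counts over all genes moved more. For cluster 5, 123 genes became 1349 with DESeq2, 621 with sums per plate, 340 without the block, 199 without the filter and 193 with at least 10 cells per sum or without Cspg4dsRED. For cluster 10, 1156 became 2895 with DESeq2 and 438 to 885 without a line. Among fibroblast clusters 375 became 900 with DESeq2, 1114 with sums per plate, 1072 without the block, 203 with at least 10 cells per sum and 52 to 271 without a line. With the median gene at 0, genes higher and lower went from 48 and 75 to 97 and 44 in cluster 5, and from 316 and 840 to 460 and 343 in cluster 10. Averaging over all cells moved 9 levels by more than the SD between lines and 79 by less. Shares of cells followed the cut, as 24 left their 95% interval without thinning (64 did not) and 45 did so at 1 read (43 did not). Depth, and few lines per cluster (2 in clusters 4 and 9), limit what the rare members can show. The sums compared were paired by line through the block in each fit but the one without it.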
